A study of Mus musculus with 4 samples.

Results

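The aryl hydrocarbon receptor (AHR) and its target genes were examined in cultured large intestinal ILC2s treated with deoxycholic acid (DCA) or vehicle. The members were chosen by name, with earlier results of these data known: Ahr, its nuclear partner Arnt, its repressor Ahrr, and the target genes Tiparp, Cyp1a1, and Cyp1b1. All 6 are among the 27179 genes of the deposited count table, and all 6 reached the mean of at least 1 CPM (counts scaled to library size) required for testing, as did 11184 genes in total. ILC2s are lymphocytes that lack antigen receptors and make type 2 cytokines. The cells came from large intestines of C57BL/6 mice and were sorted as CD127+KLRG1+ cells lacking lineage markers. The study's methods give this strain an age of 6 to 8 weeks, with a wider range for the experiments in general. On sex they differ, naming both sexes of this strain at first and only males further on. Both groups grew for 5 days in medium with IL-33, IL-25, IL-7, and IL-2, each at 10 ng/mL, and then received vehicle (2 libraries) or DCA (2 libraries). DCA, used at 100 μM, is a secondary bile acid made by gut bacteria. Sources differ on the exposure, which was 16 hours by the deposited design text and 24 hours by the sequencing protocol. Nothing in the labels says whether the libraries came from separate mice, sorts, or wells, so p-values measure only the spread between these libraries, which may be technical.

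AHR is a ligand-activated transcription factor that waits in the cytosol bound to chaperones that include HSP90 and p23. Ligands from diet, microbes, and tryptophan breakdown release it to the nucleus, where it pairs with ARNT and binds DNA elements with the core GCGTG. The CYP1 enzymes that it induces degrade many of its ligands, AHRR competes with AHR for ARNT, and TIPARP marks AHR with ADP-ribose and lowers its activity, so several targets feed back on the receptor. In the gut, AHR is needed for ILC3 maintenance and IL-22, and in gut ILC2s it has been described as a restraint on the IL-33 receptor and on type 2 cytokines.

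Promoters of 5 members matched in the RefSeq promoter table for GRCm38.p6 (250 bases before to 50 after the transcription start), all but Ahr. Every one of these 5 held the GCGTG core in a search of both strands, compared with 32.4% of all 32851 promoters in the table and 51.7% of those of genes tested here. The longer form TNGCGTG, which contains the core, was found in the Ahrr promoter alone among the 5. It was in 5.07% of all promoters and 8.29% of those of genes tested here. Ahrr held 3 cores, a number that 3.91% of all promoters reached. These are letter matches and not measured binding sites, and the best known AHR elements of Cyp1a1 lie farther upstream than this window. The stretches of the 4 targets are printed because the core is the letter pattern that AHR and ARNT read, with the core in capitals (as CACGC where it lies on the other strand) and all else in lower case, 5′ to 3′ along each gene. Cyp1a1 is taken from chr9:57697363-57697612 on the plus strand, Ahrr from chr13:74292332-74292581 on the minus strand, Cyp1b1 from chr17:79715062-79715311 on the minus strand, and Tiparp from chr3:65528197-65528406 on the plus strand, the last ending before the first Tiparp exon of the GENCODE annotation.
Cyp1a1: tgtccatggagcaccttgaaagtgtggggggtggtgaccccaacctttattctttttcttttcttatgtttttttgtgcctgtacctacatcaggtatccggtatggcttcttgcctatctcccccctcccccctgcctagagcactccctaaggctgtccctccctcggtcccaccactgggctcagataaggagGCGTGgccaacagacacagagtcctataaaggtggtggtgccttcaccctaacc
Ahrr: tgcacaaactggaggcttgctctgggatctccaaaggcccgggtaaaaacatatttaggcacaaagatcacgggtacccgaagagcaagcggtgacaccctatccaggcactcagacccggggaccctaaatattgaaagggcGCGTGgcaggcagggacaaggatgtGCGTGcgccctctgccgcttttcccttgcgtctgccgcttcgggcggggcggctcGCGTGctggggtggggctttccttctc
Cyp1b1: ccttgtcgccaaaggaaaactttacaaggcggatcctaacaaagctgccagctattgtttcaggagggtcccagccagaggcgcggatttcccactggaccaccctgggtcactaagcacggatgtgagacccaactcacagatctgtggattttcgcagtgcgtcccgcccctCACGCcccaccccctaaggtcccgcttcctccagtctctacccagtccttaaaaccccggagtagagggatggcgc
Tiparp: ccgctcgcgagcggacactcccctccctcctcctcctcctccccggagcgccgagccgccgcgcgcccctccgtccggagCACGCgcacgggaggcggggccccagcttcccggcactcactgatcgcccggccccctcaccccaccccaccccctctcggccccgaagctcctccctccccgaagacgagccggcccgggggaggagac
Counted from the base before the transcription start as -1, the core began at -54 in Cyp1a1, at -107, -82, and -27 in Ahrr, at -76 in Cyp1b1, and at -170 in Tiparp. Arnt, which is not a classical AHR target, also held a core, at -29. For Cyp1a1 the start used was at 57697613, inside the gene span of 57687928 to 57703824 given below and not at its first base.

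The libraries held 26564059 to 35838342 counts, apart from DCA replicate 2, which held 244165712. The cells carried ILC2 markers, with a summed level of 4315 to 4463 CPM over Gata3, Il1rl1, Klrg1, Il7r, Rora, Il17rb, Il2ra, and Ptprc. Single markers differed within that sum, and edgeR gave 3 of the 8 an unadjusted p under 0.05, against 4.27% of all genes tested. Klrg1, a marker of the sort, was at 688 and 678 CPM in vehicle and 463 and 356 CPM in DCA libraries (log2 fold change -0.74, unadjusted p = 0.0154, edgeR). Il7r, which encodes the sort marker CD127, went the other way, at 374 and 351 CPM in vehicle and 583 and 461 CPM in DCA libraries. Its log2 fold change was 0.53 (unadjusted p = 0.0531, edgeR). Il2ra, an IL-2 receptor subunit, was at 1075 and 1231 CPM in vehicle and 1615 and 1585 CPM in DCA libraries (log2 fold change 0.47, unadjusted p = 0.0459, edgeR), and Il1rl1 is given with its list. Klrg1, Il7r, Il2ra, Cd68, Il17a, Epcam, Krt18, Col1a2, and Pdgfra are singled out after their values were seen. The part of these markers in the results was not tested. Of the other AHR-expressing innate lymphocytes, the ILC3s, the markers Il23r, Ncr1, and Il22 were at 0 counts in all 4 libraries. A count of 0 allows up to 0.0125 to 0.115 CPM depending on the library (3 counts, counting error only). Il17a, on the same list, had 48 counts (1.49 CPM) in DCA replicate 1 and 0 in the other libraries. Cd68, from the macrophage list, had a mean of 24.1 ± 0.206 CPM (SD, n = 2) in vehicle and 8.73 ± 2.02 CPM (SD, n = 2) in DCA libraries (unadjusted p = 0.0381, edgeR), with Csf1r and Cd14 at 0 counts throughout, and its part in the results was not tested. Kit was the main ILC3-list gene detected, at 159 to 359 CPM, and ILC2s can express it too. Fibroblast and endothelial markers, of interest because stromal cells express Cyp1b1, summed to 12.9 and 4.09 CPM in vehicle and 3.75 and 6.83 CPM in DCA libraries, mostly Pecam1. Col3a1 and Dcn were at 0 counts in all 4 libraries, whereas Col1a2 had up to 52 counts (vehicle replicate 1) and Pdgfra up to 98 (DCA replicate 2). Epithelial markers summed to 8.29 and 13.5 CPM in vehicle and 7.74 and 9.01 CPM in DCA libraries, with Krt20 at 0 counts throughout. Epcam was at 7.63 and 6.95 CPM in vehicle and 3.99 and 7.86 CPM in DCA libraries. Krt18 was at 0.219 and 6.42 CPM in vehicle and 3.25 and 1.09 CPM in DCA libraries.

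When DCA was set against vehicle by edgeR's quasi-likelihood method, 0 of the 6 members passed an adjusted p of 0.05 (adjusted p = 0.999 for each), and 0 had an unadjusted p under 0.05. Over all genes tested, 0% (0 of 11184) passed the adjusted threshold and 4.27% (478) had an unadjusted p under 0.05. DESeq2, the test that the study's methods name, called 128 genes and limma called 0, and neither called a member. The 2 CYP1 genes stood on opposite sides, Cyp1b1 higher and Cyp1a1 lower in each DCA library than in either vehicle library. Arnt was also higher in both DCA libraries, whereas Ahr, Ahrr, and Tiparp overlapped between treatments. In all, the libraries of 3 members did not overlap, against 33.3% of all genes tested. Of these, 2 members had both DCA libraries above both vehicle libraries, against 18.6% of all genes tested, and 1 member had both below, against 14.7%. With 2 libraries against 2, a two-sided exact permutation test cannot go below p = 0.333.

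**Figure D1:**
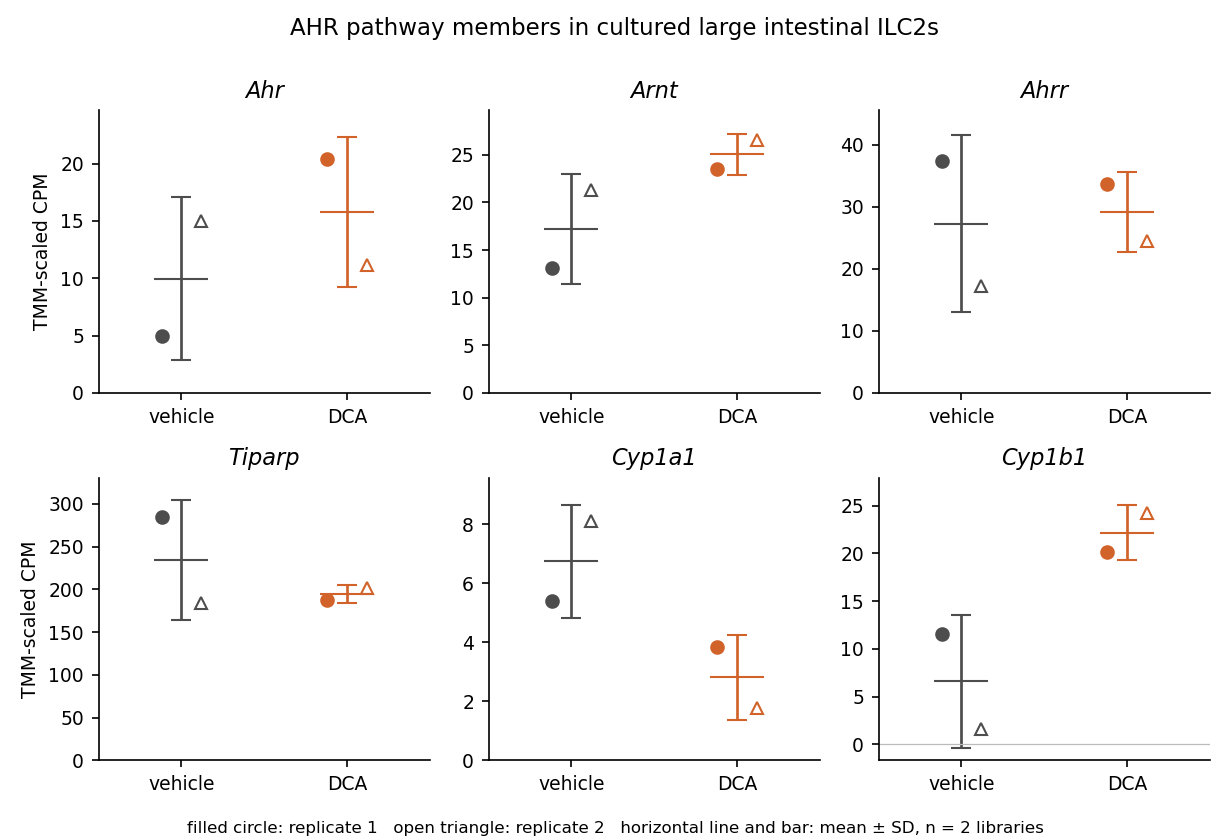
TMM-scaled CPM of each member (y axis, linear, 1 panel per gene) in vehicle (grey) and DCA (orange) libraries, with replicate 1 as a filled circle, replicate 2 as an open triangle, and the mean ± SD (n = 2 libraries) as a line and bar. Cyp1b1 and Arnt lie higher in both DCA libraries and Cyp1a1 lower in both, and the vehicle libraries of Ahr, Ahrr, and Cyp1b1 lie more than 2-fold apart.

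Ahr (Entrez gene 11622, chromosome 12 from 35497979 to 35534989 on GRCm38), which encodes the receptor, had 182 and 392 counts in vehicle libraries and 658 and 2679 in DCA libraries, or 4.98 and 15.0 against 20.4 and 11.1 CPM. Vehicle replicate 1 was the lowest library, and the other 3 did not separate by treatment. The means were 9.98 ± 7.07 CPM (SD, n = 2) with vehicle and 15.8 ± 6.52 CPM (SD, n = 2) with DCA. The fitted log2 fold change was 0.66 (standard error 0.82, taken from replicate log2(CPM + 1) values; 95% interval from the edgeR fit -1.26 to 2.58), with unadjusted p = 0.436 and adjusted p = 0.999. It was 0.044 without vehicle replicate 1 and 1.66 without vehicle replicate 2. In bulk RNA, more transcript per cell and more cells that express the gene cannot be told apart.

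Arnt (Entrez gene 11863, chromosome 3 from 95434367 to 95497240), which encodes the partner that AHR needs to bind DNA and that HIF proteins share, had 481 and 557 counts in vehicle libraries and 761 and 6391 in DCA libraries. This was 13.2 and 21.3 CPM against 23.6 and 26.6 CPM. Each DCA library lay above each vehicle library, but the lower DCA library exceeded the higher vehicle library by only 1.11-fold. Arnt had a log2 fold change of 0.54 (standard error 0.34; 95% interval -0.69 to 1.78; unadjusted p = 0.326 in edgeR's test). It was 0.21 without vehicle replicate 1 and 0.93 without vehicle replicate 2.

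Ahrr (Entrez gene 11624, chromosome 13 from 74211118 to 74292331), the repressor that AHR itself induces, had 1365 and 449 counts in vehicle libraries and 1087 and 5899 in DCA libraries. In CPM these were 37.3 and 17.2 with vehicle and 33.6 and 24.5 with DCA. The vehicle libraries were the highest and the lowest of the 4, 2.18-fold apart, with both DCA libraries between them. The log2 fold change of Ahrr was 0.093 (standard error 0.58; 95% interval -1.18 to 1.36; unadjusted p = 0.864, edgeR), and its sign depended on the libraries kept, at -0.36 when vehicle replicate 2 was left out and 0.73 when vehicle replicate 1 was.

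Tiparp (Entrez gene 99929, chromosome 3 from 65528447 to 65555518), the ADP-ribosyltransferase that dampens AHR, was by far the most abundant member. It had 10383 and 4828 counts in vehicle libraries and 6053 and 48578 in DCA libraries, or 284 and 184 against 187 and 202 CPM. Vehicle replicate 1 was the highest, and the other 3 libraries lay close together. The means, 234 ± 70.4 CPM (SD, n = 2) with vehicle and 195 ± 10.4 CPM (SD, n = 2) with DCA, gave a log2 fold change of -0.27 (standard error 0.31; 95% interval -0.94 to 0.40; unadjusted p = 0.371, edgeR). Without vehicle replicate 1 the value was 0.051, so its direction rested on that library. Tiparp had the narrowest interval of the 6 members. Exons of the antisense gene 4931440P22Rik overlap those of Tiparp in the GENCODE annotation, and this gene had 84 and 31 counts in vehicle libraries and 11 and 336 in DCA libraries, a small number beside those of Tiparp. An annotated long noncoding RNA gene, Gm48236, overlaps exons of Ahr on the other strand, and reads of the 2 cannot be told apart without strand.

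Cyp1a1 (Entrez gene 13076, chromosome 9 from 57687928 to 57703824), the monooxygenase most often used as a readout of AHR activity, was detected in every library at a low level. It had 197 and 212 counts in vehicle libraries and 124 and 430 in DCA libraries, the last in the deepest library. In CPM, Cyp1a1 was at 5.39 and 8.10 with vehicle and at 3.84 and 1.79 with DCA. Both DCA libraries were below both vehicle libraries, and the lower vehicle library exceeded the higher DCA library by 1.40-fold. The means were 6.74 ± 1.92 CPM (SD, n = 2) and 2.81 ± 1.45 CPM (SD, n = 2), 2.40-fold lower with DCA. Its log2 fold change of -1.26 (standard error 0.47) had a 95% interval of -4.13 to 1.60 and an unadjusted p of 0.325 in edgeR's test (two-sided exact permutation p = 0.333). The value stayed below 0 with each library left out, from -1.92 without DCA replicate 1 to -0.81 without DCA replicate 2. Alternatives that kept all 4 libraries gave values from -1.33 to -1.05.

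Cyp1b1 (Entrez gene 13078, chromosome 17 from 79706940 to 79715061), a related AHR-induced monooxygenase, had 422 and 43 counts in vehicle libraries and 651 and 5825 in DCA libraries. In CPM, Cyp1b1 was at 11.5 and 1.64 with vehicle and at 20.2 and 24.2 with DCA. The DCA libraries were within 1.20-fold of each other, the vehicle libraries were 7.02-fold apart, and the lower DCA library exceeded the higher vehicle library by 1.75-fold. Group means of 6.59 ± 7.00 CPM (SD, n = 2) and 22.2 ± 2.88 CPM (SD, n = 2) gave the largest fitted change of the 6 members, a log2 fold change of 1.75 (standard error 1.13; 95% interval -0.59 to 4.08). By edgeR's quasi-likelihood method the unadjusted p was 0.117 and the adjusted p 0.999 (two-sided exact permutation p = 0.333). The size rested on vehicle replicate 2, since the value was 0.94 without that library and 3.73 without vehicle replicate 1. Over the alternatives the lowest adjusted p was 0.118, without vehicle replicate 1, and the unadjusted p was under 0.05 without a filter on low counts (0.0426), with limma (0.0423), and without vehicle replicate 1 (0.00124).

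The 2 CYP1 genes were also set against each other within a library, which needs no scaling between libraries. Cyp1b1 had 2.14 and 0.203 times the counts of Cyp1a1 with vehicle and 5.25 and 13.5 times the counts of Cyp1a1 with DCA. The DCA ratios were both above the vehicle ratios, and the vehicle ratios were themselves far apart. This ratio was chosen after the values had been seen and was not tested.

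**Figure D2:**
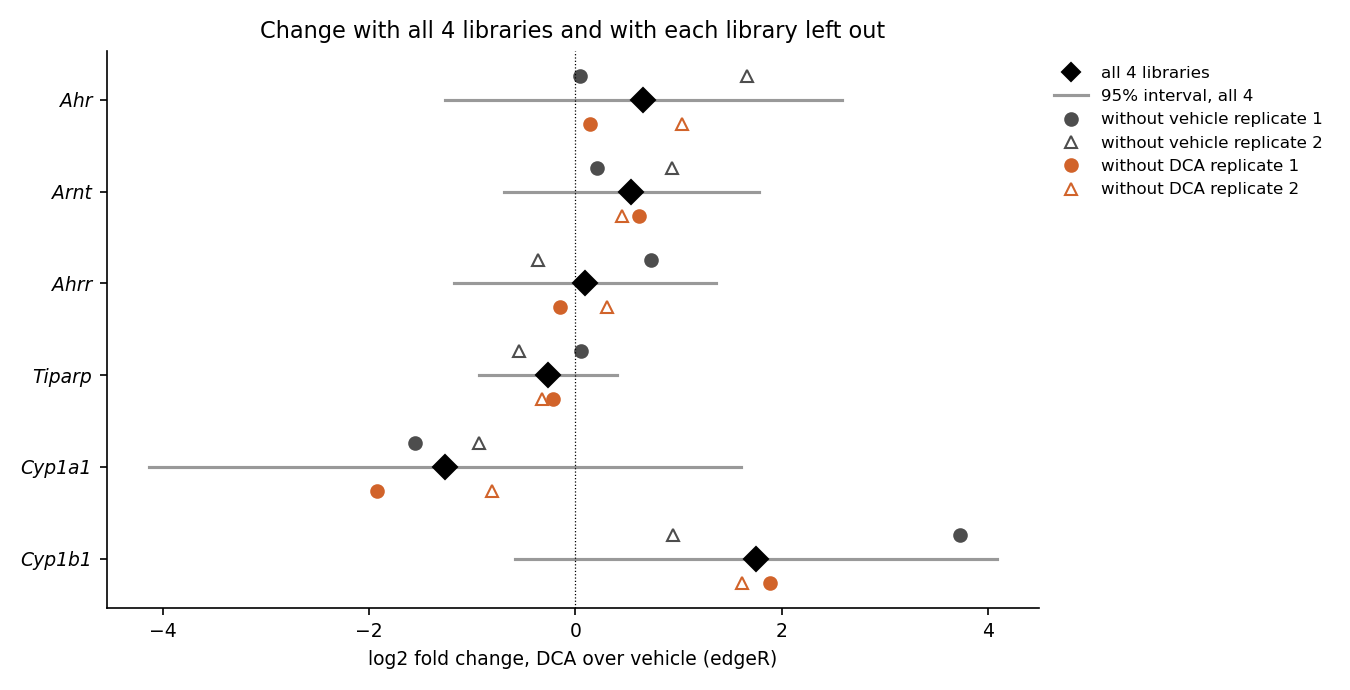
Log2 fold change of DCA over vehicle (x axis, edgeR) for each member, with all 4 libraries (diamond), its 95% interval (grey line), and with each library left out in turn (circles and triangles). All 6 intervals include 0. Cyp1a1 stays below 0 and Cyp1b1, Arnt, and Ahr stay above 0 in every refit, Ahr by only 0.044 without vehicle replicate 1. Ahrr and Tiparp cross 0 with 1 library left out.

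Levels were compared between members per kilobase of annotated exon, since longer transcripts collect more reads. Tiparp stood first in all 4 libraries, at 42.3 to 65.2 CPM per kb, above 87.6% of the 10590 genes tested that have a length. The others followed at mean levels of 2.98 CPM per kb for Ahrr, 2.64 for Arnt, 2.46 for Cyp1b1, 2.09 for Ahr, and 1.71 for Cyp1a1, above 24.2% to 34.8% of those genes. Ranges over the libraries overlapped for every neighboring pair among these 5, and their order changed from library to library. Ahr was 6th of the 6 in vehicle replicate 1 and 4th or 5th in the others. Cyp1a1 was 4th and 2nd with vehicle and 6th in both DCA libraries, while Cyp1b1 was 3rd and 6th with vehicle and 3rd and 2nd with DCA. Per kb, Ahrr was at 4.90 and 0.748 times the level of Ahr with vehicle and at 1.08 and 1.44 times its level with DCA.

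**Figure D3:**
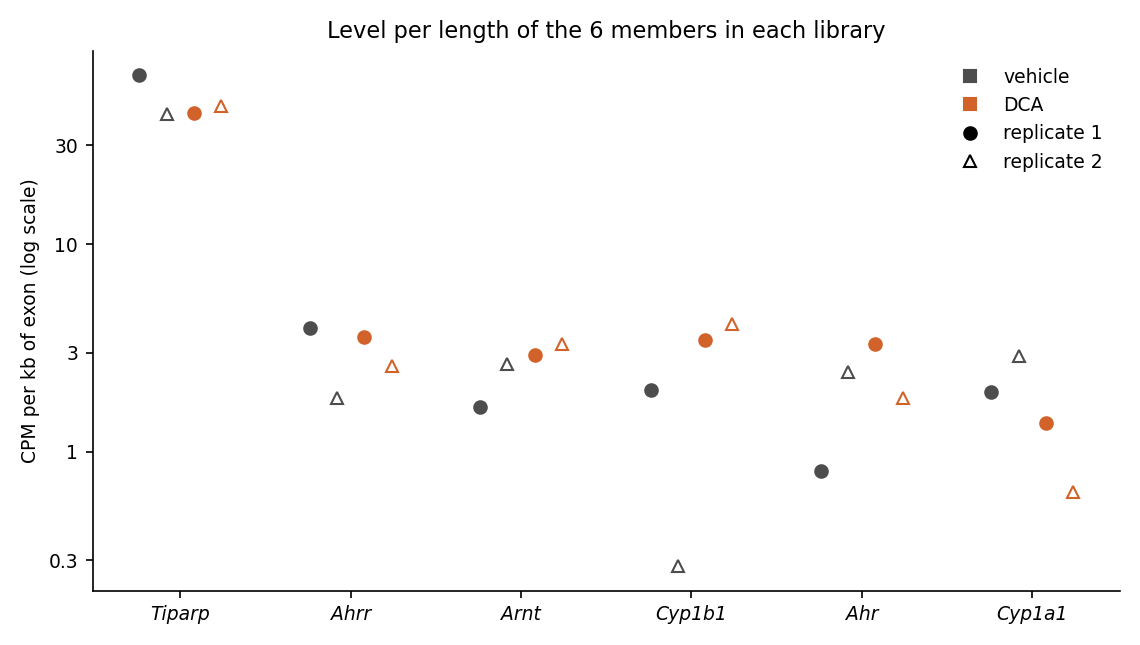
CPM per kb of exon (y axis, log scale) of the 6 members in each library, ordered by mean level, with vehicle in grey, DCA in orange, replicate 1 filled, and replicate 2 open. Tiparp lies above the other 5 in every library, and the other 5 overlap.

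The spread between libraries of 1 treatment was a large part of these values. On the CPM + 1 scale the vehicle libraries differed by over 2-fold for 3 of the 6 members (Ahr, Ahrr, and Cyp1b1), against 29% of all genes tested, and the DCA libraries for 0 of 6, against 18.2%. Vehicle replicate 1 was low for Ahr and high for Ahrr and Cyp1b1 relative to vehicle replicate 2. Counts were also simulated over 11184 genes, each at the spread that the fitted trend gives for its mean level. In these the edgeR test called 1.5% of the 200 genes given a true log2 change of 1, and 37% and 63% of those given 2 and 3. The spread of each gene itself, such as the wide gap between vehicle libraries for Cyp1b1, was not simulated.

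Genes with a pattern most like that of Ahr were sought among 5990 tested genes with a mean level within 4-fold of Ahr, by the distance between centered log2(CPM + 1) profiles over the 4 libraries. The nearest were Sgsh (distance 0.119), Nudt6 (0.125), Tefm (0.126), Adck1 (0.140), and Oxnad1 (0.165), where the median distance was 1.74. As with Ahr, each was lowest in vehicle replicate 1 and highest in DCA replicate 1. Among the members, Arnt was the nearest to Ahr, at a distance of 0.896, with 6.62% of tested genes nearer, and Cyp1b1 the farthest, at 2.99. Profiles over 4 libraries share the libraries' own deviations, and likeness here carries no test.

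The cytosolic complex that holds AHR, and its co-regulators, formed a list of 10 genes, all tested. Of these, 0 had an adjusted and 0 an unadjusted p under 0.05 in edgeR's test, against 0% and 4.27% of all genes tested. Their median log2 fold change was 0.099, against 0.0080 over all genes tested, and was -0.0047 without DCA replicate 1. The HSP90 chaperone gene Hsp90ab1 was at 2739 and 2835 CPM in vehicle and 3395 and 3495 CPM in DCA libraries, above vehicle in both DCA libraries (log2 fold change 0.31, standard error 0.032, unadjusted p = 0.122 in edgeR's test). Ptges3, which encodes p23, was at 54.7 and 69.4 CPM in vehicle and 78.3 and 59.3 CPM in DCA libraries. Of the 10, 2 (Hsp90ab1 and Crebbp) lay higher in both DCA libraries than in either vehicle library, against 18.6% of all genes tested. The 1 lower in both, against 14.7%, was Ncoa1, a coactivator, at 18.0 and 17.4 CPM with vehicle and 13.5 and 13.3 with DCA. Ncoa1 and Crebbp are named here after their values were seen.

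Among the other bHLH-PAS genes, the family of AHR and ARNT, 13 of the 19 in the table were tested. At an unadjusted p under 0.05, 0 were higher, against 2.54% of all genes tested, and 1 was lower, against 1.73% (median log2 fold change -0.0068, but 0.38 without vehicle replicate 1 and -0.34 without vehicle replicate 2). That 1 gene was Npas4, an activity-induced factor of neurons, with 516 counts in vehicle replicate 1, 3 in vehicle replicate 2, and 0 in either DCA library. It rested on vehicle replicate 1, as the other 3 libraries were at or under 3 counts. Adjusted p-values of Npas4 were 0.999 in edgeR's test, 0.00183 with DESeq2, and 0.0391 without a filter on low counts.

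Of the other classical AHR battery genes, most of which encode enzymes that clear foreign compounds, 3 of 11 were tested: Nqo1, Aldh3a1, and Nfe2l2. Their median log2 fold change was 0.099, with values from -0.12 without DCA replicate 1 to 0.57 without vehicle replicate 1, and 1.54 without a filter on low counts, where more of the list was tested. At an unadjusted p under 0.05, 1 was higher (2.54% of all genes tested) and 0 were lower. Nqo1, a quinone reductase induced by both AHR and NRF2, had the smallest unadjusted p of any gene on the pathway lists. It was at 300 and 347 CPM in vehicle and 577 and 584 CPM in DCA libraries, means of 323 ± 32.9 and 581 ± 4.75 CPM (SD, n = 2). The DCA libraries lay close together and well above vehicle. Its log2 fold change was 0.84 (standard error 0.10; 95% interval 0.34 to 1.35), with unadjusted p = 0.00604 and adjusted p = 0.999 in edgeR's test. With DESeq2, which called 1.14% of all genes tested, the adjusted p of Nqo1 was 0.00895. Fits that dropped 1 library gave 0.72 to 0.95. Nfe2l2, which encodes NRF2, was at 137 and 195 CPM in vehicle and 156 and 147 CPM in DCA libraries. Aldh3a1, an aldehyde dehydrogenase, was at 699 and 382 CPM in vehicle and 661 and 497 CPM in DCA libraries, and overlapped between treatments (log2 fold change 0.099, standard error 0.48). Aldh3a1 and Nfe2l2 are named after their values were seen. Cyp1a2, the third CYP1 gene, had 0 counts in 3 libraries and 2 counts in DCA replicate 1. Ugt1a6a and Ugt1a6b were at 0 counts in all 4 libraries, and Ugt1a genes share exons, so their counts are uncertain.

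**Figure D4:**
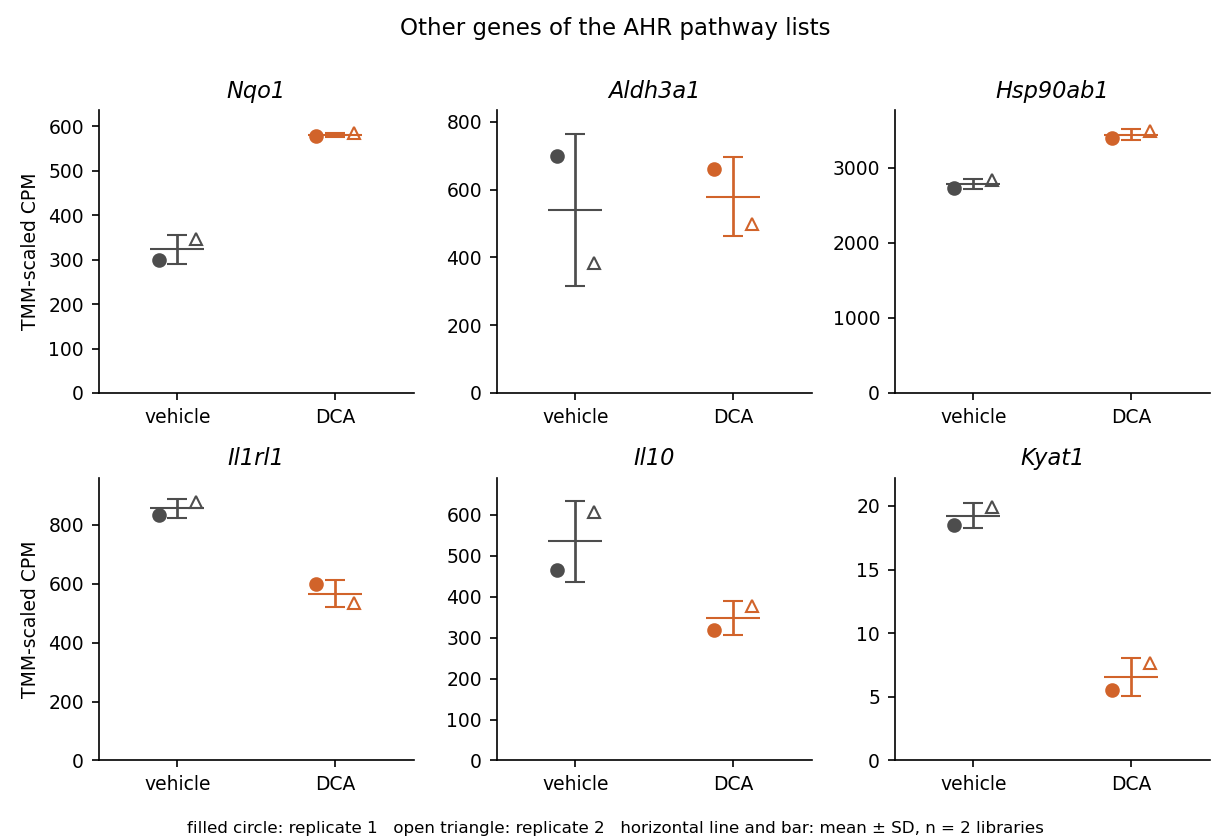
TMM-scaled CPM (y axis, linear) of 6 genes of the AHR pathway lists, drawn as in the plot of the members, with the mean ± SD (n = 2 libraries). Nqo1 and Hsp90ab1 lie higher and Il1rl1, Il10, and Kyat1 lower in both DCA libraries, and Aldh3a1 overlaps; the panels were chosen after the values were seen.

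Immune genes reported to depend on AHR numbered 14, of which 11 were tested. At an unadjusted p under 0.05, 0 were higher, where 2.54% of all genes tested were, and 1 was lower, where 1.73% were (median log2 fold change -0.24). The 1 gene was Il10, an anti-inflammatory cytokine, at 466 and 606 CPM in vehicle and 319 and 378 CPM in DCA libraries. Both DCA libraries were below both vehicle libraries (log2 fold change -0.62, standard error 0.23, unadjusted p = 0.0379 and adjusted p = 0.999 in edgeR's test), and the value was -0.42 without vehicle replicate 2. The list median was 0.015 without vehicle replicate 2. Il22, the cytokine most tied to AHR in ILC3s, was at 0 counts in every library.

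Genes for making and importing tryptophan-derived ligands numbered 14 in the table, with 9 tested and a median log2 fold change of -0.62. Values below 0 were found for 7 of the 9, against 49.3% of all genes tested, and 1 was lower at an unadjusted p under 0.05, against 1.73%. Kyat1, a kynurenine aminotransferase, was at 18.5 and 19.9 CPM in vehicle and 5.51 and 7.62 CPM in DCA libraries. Its log2 fold change was -1.55 (standard error 0.21; 95% interval -3.09 to -0.0041), with unadjusted p = 0.0496 and adjusted p = 0.999 in edgeR's test. Leaving out DCA replicate 1 moved the median of this list to -0.14, and leaving out DCA replicate 2 moved it to -1.38. Ido1, which opens tryptophan breakdown, had 186 and 96 counts in vehicle libraries and 1 and 988 in DCA libraries, and is named after its values were seen. Only DCA replicate 1 was low, and DCA replicate 2, at 4.11 CPM, lay between the vehicle libraries at 5.09 and 3.67 CPM.

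The genes linked to AHR in gut ILC2s were Il1rl1, Gfi1, Il5, Il13, Areg, and Gata3, with a median log2 fold change of -0.33. Of these 6, 1 was lower at an unadjusted p under 0.05 (1.73% of all genes tested) and 0 were higher (2.54%). Il1rl1, which encodes the IL-33 receptor ST2, was at 833 and 877 CPM in vehicle and 599 and 533 CPM in DCA libraries. Both DCA libraries were below both vehicle libraries, a log2 fold change of -0.60 (standard error 0.091; 95% interval -1.08 to -0.11) with unadjusted p = 0.0229 and adjusted p = 0.999 in edgeR's test, and 0.0689 with DESeq2. Across the fits with 1 library left out it ranged from -0.69 to -0.51. Gfi1, a transcription factor of ILC2s that promotes Il1rl1, was at 59.9 and 7.34 CPM in vehicle and 10.7 and 13.6 CPM in DCA libraries, so that its fitted change of -1.47 rested on vehicle replicate 1 and was 0.70 without it. Il5 was at 8867 and 7727 CPM in vehicle and 9963 and 12334 CPM in DCA libraries. Areg was at 532 and 512 CPM in vehicle and 434 and 254 CPM in DCA libraries. Il5 and Areg, effector genes of these cells, had log2 fold changes of 0.43 and -0.60, with unadjusted p of 0.0603 and 0.0868 in edgeR's test. Without DCA replicate 2 the value of Il5 was 0.27 and that of Areg -0.26, and without DCA replicate 1 that of Areg was -1.04. The list median was 0.12 without vehicle replicate 1.

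Over the 6 lists, which held 48 different tested genes, 0 had an edgeR adjusted p under 0.05. An unadjusted p under 0.05 was found for 5 (Nqo1, Npas4, Il10, Kyat1, and Il1rl1), against 4.27% of all genes tested. DESeq2 called 2 (Nqo1 and Npas4), against 1.14%. Npas4 passed the filter on mean CPM only through vehicle replicate 1, so its place in both counts rested on that library.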

How the data were processed

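RNA-Seq of sorted, cultured ILC2s (2 vehicle and 2 DCA libraries) was re-analyzed from the deposited table. Per the labels and methods, the authors used the SMART-Seq HT kit for cDNA and sequenced both ends of the fragments. Adapters were removed using cutadapt 1.9, and HISAT2 2.2.1 placed the reads on mm10. The study's methods name DESeq2 for finding changed genes, whereas the main test here was edgeR's. Although its name refers to FPKM, the deposited table holds whole-number counts per gene, not divided by length or library size. The counting tool, annotation, and strand setting are not given in the sources used here. Genes with 2 counts outnumbered those with 1 (484 against 253 in vehicle replicate 1), as when both mates of a pair are counted, so limits set at 3 counts may be too low. Totals ran from 26564059 to 244165712 counts.

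Libraries were grouped by their labels. Counts were scaled with TMM, and DCA was compared with vehicle in edgeR 4.0.16 (R 4.3.3) by its two-sided quasi-likelihood test, with p-values adjusted by the Benjamini-Hochberg method across all 11184 genes whose mean reached 1 CPM. The fit was checked on simulated counts. Intervals for fold changes came from the fitted value and its F statistic. Standard errors came from replicate log2(CPM + 1) values and not from the fit, so they can be narrower than the intervals. Exon lengths came from GENCODE M21 and positions and promoters from RefSeq, both on GRCm38, the assembly called mm10.

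Named genes were the 6 members, pathway list genes with an unadjusted p under 0.05, pathway list genes whose role is needed to read the members (Hsp90ab1, Ptges3, Cyp1a2, Nqo1, Il1rl1, Gfi1, Il22, Il5, and Areg), and the 5 genes most like Ahr. Members, lists, and marker genes were chosen with earlier results of these data known. Of the pathway and marker lists, 2 genes are not reported here and were left out of the counts and medians. Among marker genes of mast cells, macrophages, B cells, and T cells, only Cd3g, Cd79b, Cd68, and Mcpt8 reached a mean of 1 CPM. Over the libraries, Cd79b was at 37.5 to 55.2 CPM, Cd3g at 10.5 to 25.6 CPM, and Mcpt8 at 0 to 4.62 CPM. Alternatives were DESeq2 1.42.0, limma 3.58.1 on log2(CPM + 1), scaling by total counts or by median of ratios, no filter on low counts or a stricter one at 5 CPM, a replicate block, DCA replicate 2 thinned to 32100075 counts, and leaving out each library.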

Additional observations from a re-analysis of the deposited data

How the results depend on the processing

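The number of genes past an adjusted p of 0.05, 0 in edgeR's quasi-likelihood test, was 128 with DESeq2, 36 without a filter on low counts, and 0 under the other alternatives that kept all libraries, and with 1 library left out it ranged from 0 to 20 (20 without vehicle replicate 1). In the fits with 1 library left out, the lone library of a treatment was assumed to vary like the others. The cause was not tested. Members past the threshold were 0 throughout, and genes of the pathway lists past it were 2 with DESeq2, 1 without a filter, and 0 otherwise. Cyp1a1 has no value under the filter at 5 CPM, and Npas4 none without vehicle replicate 1, as neither passes the filter there.

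All 6 members kept their direction under each alternative with all libraries. Leaving out 1 library gave log2 fold changes of 0.044 to 1.66 for Ahr, -0.36 to 0.73 for Ahrr, 0.21 to 0.93 for Arnt, -0.54 to 0.051 for Tiparp, -1.92 to -0.81 for Cyp1a1, and 0.94 to 3.73 for Cyp1b1. Ahrr changed sign when vehicle replicate 2 (-0.36) or DCA replicate 1 (-0.15) was left out, and Tiparp without vehicle replicate 1 (0.051). Vehicle replicate 1 also set the sign of Gfi1 (0.70 without it; range from -2.30) and Ptges3 (-0.038; range from -0.072, without DCA replicate 1, to 0.34).

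Nothing in the labels ties libraries of equal number together, and their deviations from the group means correlated at 0.020 across genes. The replicate block called 0 genes after adjustment (450 before it) and gave Cyp1b1 a log2 fold change of 2.33.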
